A study of Mus musculus with 2 samples.

Results

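The cells described here are 69 keratinocytes of the mouse tongue that held abundant mRNA of Krt76, a type II keratin of differentiated oral epithelium, and little mRNA of hemidesmosome genes. A cell was a member when at least 5 of every 10000 of its UMIs (unique molecular identifiers, one for each captured transcript) came from Krt76 and fewer than 10 per 10000 came from Col17a1, Itga6 and Itgb4 together. The rule took 29 of 1525 kept cells at ZT0 and 40 of 2553 at ZT12, or 69 of 4078 cells in all. Kept cells had at least 500 genes, at least 5000 UMIs and less than 10% mitochondrial UMIs.

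The series profiled live epithelial cells from the tongues of male mice, which the labels give as strain B57BL/6 and 8 to 12 weeks old, with no mutant allele or drug named for either group. Tissue was taken at 2 Zeitgeber times, ZT0 and ZT12, which by the usual convention are lights on and lights off. TrypLE Express, a trypsin-like enzyme, freed the cells, the dye 7-AAD marked the dead ones, and droplet libraries that read transcripts from their polyadenylated end were made. Each time is represented by a single library, and how many mice went into it is unknown here, so no test between times was possible and every interval below covers counting error only.

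Stratified oral epithelium renews from a basal layer that is anchored to the basement membrane by hemidesmosomes, in which collagen XVII and integrin α6β4 span the membrane. Cells that leave this layer exchange the keratins KRT5 and KRT14 for layer-specific pairs, reinforce their desmosomes and, where the surface keratinizes, build a cornified envelope of crosslinked protein. The upper side of the tongue carries filiform papillae, whose hard spines contain hair-type keratins, with softer epithelium between them. Trichohyalin and filaggrin, encoded by Tchh and Flg, belong to the S100-fused family, whose members bind or crosslink keratin filaments late in differentiation.

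Most kept cells held no Krt76. No Krt76 UMI was found in 1331 of 1525 cells at ZT0 and in 2256 of 2553 at ZT12, while 14 and 24 cells held 50 or more per 10000. Between these, 147 and 232 cells held some Krt76 but less than 1 per 10000, 16 and 21 held from 1 to less than 5, 9 and 12 from 5 to less than 10, and 8 and 8 from 10 to less than 50. Member values ran from 5.02 to 341 per 10000 at ZT0, with a median of 47.7, and from 5.16 to 542 at ZT12, with a median of 53.7. The lowest members at ZT0 held 5.02, 5.36 and 5.66 per 10000, and the highest cells below the limit held 4.97, 2.90 and 2.53. At ZT12 the lowest members held 5.16, 5.18 and 5.89, and the cells just below the limit held 4.60, 4.46 and 4.31. These values chose the members and support nothing further. On the hemidesmosome axis, which also chose the members, no member exceeded 4.75 per 10000 at ZT0 or 3.06 at ZT12. The Krt76-high cells above the limit of 10, 2 at ZT0 and 4 at ZT12, held at least 14.9 and 11.2. With a limit of 20, members would number 30 and 43.

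**Figure D1:**
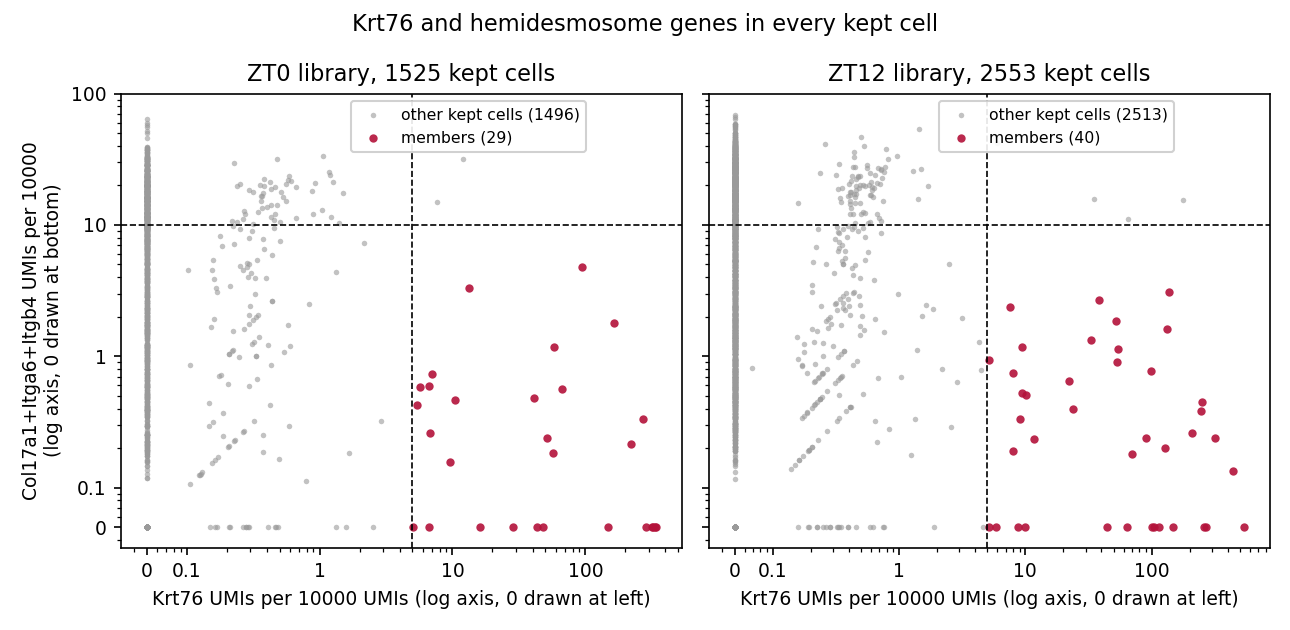
Each point is 1 kept cell, with its Krt76 UMIs per 10000 on the horizontal axis and the sum of Col17a1, Itga6 and Itgb4 per 10000 on the vertical axis, 1 panel per library; dashed lines mark the limits of 5 and 10. The 29 and 40 members fill the lower right corner, and 2 and 4 cells lie above it.

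Members made up 1.90% of kept cells at ZT0 (Clopper-Pearson 95% interval 1.28 to 2.72) and 1.57% at ZT12 (1.12 to 2.13). The ratio of the ZT12 share to the ZT0 share was 0.824, and its 95% counting interval of 0.498 to 1.38 included 1, so a difference in share was not detectable with these numbers of cells. Compared groups were all other kept cells (1496 and 2513), the cells below both limits (902 and 1513), called suprabasal cells here, and the hemidesmosome-high cells low in Krt76 (592 and 996), called basal-gate cells here. The suprabasal group was set by those limits alone, so it can also hold cells that are not keratinocytes.

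The libraries held 1726 and 2819 barcodes with 49826740 and 67901140 UMIs, of which the filters removed 201 and 266 barcodes. Members were deeper than the rest, with a median of 46623 UMIs at ZT0 and 33620.5 at ZT12 against 29061 and 23384 in other kept cells and 34157 and 28795 in the suprabasal cells. The part of depth in the results was not tested in general, but shares of cells with a UMI are also given after each cell was thinned to 5000 UMIs, which left out no cell. Members' mitochondrial share had a median of 2.39% and 2.27%, against 3.68% and 3.48% in other cells. The libraries shared 2 barcodes, and neither was a member.

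Most of the label held on summed counts, but not in every cell. Outside the rule genes, most defining genes of other cell types were near 0 in members. Immune markers summed to 15.6 CPM (UMIs scaled to a common total in each group of cells) at ZT0 and 4.44 at ZT12, against 274 and 64.0 in other cells, and 7 of 9 genes were at 0. Cd74, an immune marker of that list, stood at 1.48 and 0 CPM in members against 196 and 39.9 in the suprabasal cells. Contrasts with the suprabasal cells are therefore not between keratinocyte layers only. The 4 endothelial genes were all at 0. Melanocyte genes summed to 5.93 and 8.13 CPM, nearly all from Dct, against 2.06 and 2.095 in other cells, and so stood above them, on 8 and 11 UMIs. Muscle genes summed to 1.48 and 1.48 CPM, against 1.15 and 1.11. Of 6 fibroblast genes 5 were at 0, Col1a1 among them, and the exception was Dcn (decorin), at 924 and 449 CPM in members and 807 and 421 in other kept cells. Dcn was found in 27 of 29 and 32 of 40 members, so it was present in most members at a level like that of the other cells. Markers of simple, gland and taste epithelium summed to 0.742 and 0.739 CPM, against 29.9 and 30.1. The part of such cells in the results was not tested. Mitosis genes summed to 17.8 and 11.1 CPM in members and 1176 and 126 in other cells, and S-phase genes to 104 and 111 against 539 and 464.

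Basal keratins were not absent from the members. Krt5, the type II keratin of the basal layer, stood at 2088 and 1073 CPM, against 1646 and 1285 in the suprabasal cells, and did not meet the size rule. That rule asked for a mean of at least 50 CPM, a difference of at least 1 on the log2(CPM + 1) scale and a counting interval of the ratio that excluded 1, in the same direction in both libraries. Krt14, its type I partner, stood at 1225 and 2995 CPM against 3648 and 3072. Krt15, another type I keratin of basal cells, was lower, at 592 and 522 against 2081 and 2086 in suprabasal cells. Of 8 tested basal keratinocyte genes, 0 were higher and 3 lower than in other kept cells, where 6.04% and 4.27% of all 2714 tested genes were higher and lower.

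In all, 280 of those 2714 genes met the rule against other kept cells (10.3%), 164 higher in members and 116 lower. Against the suprabasal cells, 196 of 2666 met it (7.35%), 129 higher (4.84%) and 67 lower (2.51%). The cells were chosen on Krt76 and hemidesmosome counts of the same libraries, so these contrasts are descriptions, without a test, and nothing is read from the shares. Scaling by trimmed means (TMM) in place of total UMIs moved the split to 224 higher and 83 lower against other cells and to 162 and 60 against suprabasal cells. It moved the median log2 difference of tested genes against other cells from -0.07 and -0.06 to 0.21 and 0.11, so differences are relative to total UMIs. Of the genes named below, Nrg1, Rptn, Sbsn, Cnfn, Lor, Slpi and Car12 no longer met the rule against suprabasal cells when each gene's highest cell was left out on each side.

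Among the 5 markers that named the cells beside Krt76, Tchh and Flg lay furthest from the other cells. All 5 met the size rule upward in both libraries, where 6.04% of all 2714 tested genes did. The markers were chosen with earlier results of these data known, so this count describes the label and does not test it. Trichohyalin is a crosslinked matrix protein of the hair follicle's inner root sheath that also occurs in filiform papillae, and filaggrin bundles keratin filaments in the granular layer of epidermis. Tchh stood at 3200.1 CPM at ZT0 and 4366 at ZT12 in members against 74.6 and 82.1 in other cells, differences of 5.405 and 5.72 on the log2(CPM + 1) scale. Its median over members was 4.38 and 4.999 per 10000, its highest values were 300.0 and 425, and 1 cell held 52.3% of the members' Tchh UMIs at ZT0 and another 54.0% at ZT12. The sums were therefore carried by few cells. After thinning, 58.6% and 65.0% of members still held a Tchh UMI, against 10.98% and 10.1% of suprabasal and 14.0% and 14.3% of basal-gate cells. Flg stood at 275 and 367 CPM against 5.75 and 4.01, and was found in 15 of 29 and 24 of 40 members. Thinned, it was found in 27.6% and 35.0% of members and in 1.44% and 0.925% of suprabasal cells.

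The remaining markers were lower in level. Slurp1 encodes a secreted Ly6/uPAR protein whose loss in humans causes a thickening of palm and sole skin. It stood at 319.7 and 418 CPM against 20.7 and 16.4 in other cells, and 20 of 29 and 23 of 40 members held it. Otop2, an otopetrin proton channel, stood at 79.4 and 124 CPM against 7.32 and 9.16, and was found in 21 and 28 members. Nrg1, the neuregulin ligand of ErbB receptors, stood at 89.8 and 88.7 CPM against 22.2 and 13.6, and was found in 14 and 19 members. Otop2 and Nrg1 were near the 50 CPM limit, and neither met the rule against other cells once the highest cell of each gene was left out on each side. Below its limit, Krt76 stood at 6.04 and 6.19 CPM in suprabasal and at 4.84 and 4.53 CPM in basal-gate cells, where 8.61% and 8.03% of cells held a UMI of it.

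Promoters are shown for Krt76, Tchh, Flg and Krt24, which are the gene that chose the members, the S100-fused genes among its markers, and a keratin found in nearly every member. Each sequence is the 250 bases before the RefSeq start on GRCm38.p6, on the gene's strand, and capitals mark matches to TATAAA on that strand, and to CACCC and TGANTCA (an AP-1 type motif) on either strand.
Krt76, chr15:101892921-101893170, minus strand: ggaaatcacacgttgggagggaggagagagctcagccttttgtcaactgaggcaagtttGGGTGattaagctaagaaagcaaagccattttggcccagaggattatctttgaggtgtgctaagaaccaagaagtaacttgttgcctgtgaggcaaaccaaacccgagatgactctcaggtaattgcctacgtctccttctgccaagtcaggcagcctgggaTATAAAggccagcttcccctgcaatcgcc
Tchh, chr3:93442080-93442329, plus strand: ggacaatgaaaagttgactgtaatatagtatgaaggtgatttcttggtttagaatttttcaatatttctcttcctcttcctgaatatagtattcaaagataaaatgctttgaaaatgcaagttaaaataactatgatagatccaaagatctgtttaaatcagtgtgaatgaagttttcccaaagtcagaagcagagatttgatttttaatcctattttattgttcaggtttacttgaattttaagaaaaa
Flg, chr3:93273296-93273545, plus strand: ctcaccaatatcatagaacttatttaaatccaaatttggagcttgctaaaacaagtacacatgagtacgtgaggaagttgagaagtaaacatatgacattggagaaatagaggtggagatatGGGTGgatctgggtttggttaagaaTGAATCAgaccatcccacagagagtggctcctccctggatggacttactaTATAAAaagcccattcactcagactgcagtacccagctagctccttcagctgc
Krt24, chr11:99285263-99285512, minus strand: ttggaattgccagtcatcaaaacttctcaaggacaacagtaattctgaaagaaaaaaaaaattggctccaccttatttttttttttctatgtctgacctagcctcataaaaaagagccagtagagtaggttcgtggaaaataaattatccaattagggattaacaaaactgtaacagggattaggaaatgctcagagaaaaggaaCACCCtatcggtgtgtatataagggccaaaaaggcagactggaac
Krt76 and Flg each held a TATAAA match and a CACCC match in its reverse complement GGGTG, Flg alone of these 4 held the TGANTCA match, Krt24 held CACCC, and Tchh held none. Among 32851 RefSeq promoters of the same length, 7.59% held TATAAA on the gene's strand, 6.75% held TGANTCA and 52.0% held CACCC. A match describes letters only and is not a binding site.

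In mm10, Krt76 spans chromosome 15 from 101884351 to 101892920 on the minus strand, Krt4 lies beside it at 101918535 to 101924735 and Krt78 at 101946001 to 101954287. Flg (93273523 to 93293686), Rptn (93393699 to 93399442) and Tchh (93442330 to 93449077) lie close together on chromosome 3. Krt24 lies on chromosome 11 at 99279959 to 99285262. Slurp1 lies on chromosome 15 at 74724318 to 74728034, Nrg1 on chromosome 8 at 31814551 to 32884029 and Otop2 on chromosome 11 at 115307163 to 115332303.

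Krt24, a type I keratin of differentiating epithelium, accompanied Krt76 in nearly every member. It was found in 29 of 29 and 39 of 40 members, at medians of 31.0 and 34.9 per 10000. Its summed level was 3967 and 4226 CPM, against 581 and 392 in other cells and 685 and 472 in suprabasal cells. Krt24 was not particular to members, since 42.0% and 38.4% of suprabasal cells held it after thinning, against 96.6% and 97.5% of members. Krt78, a type II keratin of differentiated layers, stood at 328 and 476 CPM against 33.7 and 32.0. Krt80 stood at 481 and 410 CPM against 198 and 190 in suprabasal cells, and Krt6a at 12135 and 16093 against 5028 and 6162 in other cells. Of 11 tested suprabasal keratins other than Krt76, 4 were higher and 0 lower than in other cells, where 6.04% and 4.27% of all tested genes were. The list's medians were 0.62 and 0.68 on the log2 scale, where all genes of 20 CPM or more had medians of -0.14 and -0.12.

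Krt13 and Krt4 form the keratin pair of soft, non-keratinizing mucosa, and they parted in the members. Krt13 was the most abundant of the keratins named here, at 35373 and 34009 CPM, against 24552 and 33832 in suprabasal cells, and did not meet the rule. Krt4 stood at 5861 and 1672 CPM against 13095 and 17457 in suprabasal cells and was lower by the rule. Against the suprabasal cells 3 of 11 suprabasal keratins were higher and 1, Krt4, lower, where 4.84% and 2.51% of all tested genes were.

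The tested hair-type keratins of filiform papillae were nearly missing from members. Krt84, a hair-type type II keratin, stood at 0.742 and 4.44 CPM against 246 and 292 in suprabasal cells. Krt36, a hair-type type I keratin, stood at 12.6 and 15.5 CPM against 565 and 606, and Krt35 at 14.1 and 12.6 against 147 and 180. These 3 were the lower genes among 4 tested of the hair-type and filiform list, and the fourth, Lef1, a transcription factor of the Wnt pathway, was higher at 137 and 107 CPM against 48.8 and 40.1. Of all tested genes, 4.84% were higher and 2.51% lower than in suprabasal cells. Krtap3-3, a keratin-associated protein gene, went the other way, at 86.8 and 175 CPM in members against 27.2 and 29.5 in other kept cells. It was found in 13 of 29 and 24 of 40 members. No member reached 5 per 10000 of Krt36, of Sptssb or of Cyp2f2. A count of 0 allows a share of up to 10.3% of 29 and 7.5% of 40 cells, while 161 of 902 and 618 of 1513 suprabasal cells reached that level of Cyp2f2, or 17.8% and 40.8%. For Krt36 (27 and 55 suprabasal cells, 2.99% and 3.64%) and Sptssb (61 and 101 cells, 6.76% and 6.68%) the suprabasal share lay below that limit, so a lower share in members was not detectable with these numbers of cells. For Cnfn (cornifelin), 3 members at each time reached it.

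Other small gates, of non-members with 5 or more UMIs per 10000 of Krt36 (27 and 55 cells), Cnfn (34 and 36) or Sptssb (63 and 102), held little Tchh and Flg. Tchh stood at 52.5 and 64.8 CPM in the Krt36 gate, 38.6 and 1.39 in the Cnfn gate and 13.4 and 8.18 in the Sptssb gate. Flg stood at 3.35 and 0.736 CPM in the Krt36 gate and at 26.8 CPM at ZT0 and no UMI at ZT12 in the Cnfn gate. Krt24 was shared more widely, at 1621 and 1546 CPM in the Krt36 gate and 968 and 829 in the Cnfn gate. The 2 and 4 cells high in both Krt76 and hemidesmosome genes held Krt24 at 3802 and 5362 CPM, near the members' level, but Tchh at 114 and 36.9 CPM and no Flg UMI.

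**Figure D2:**
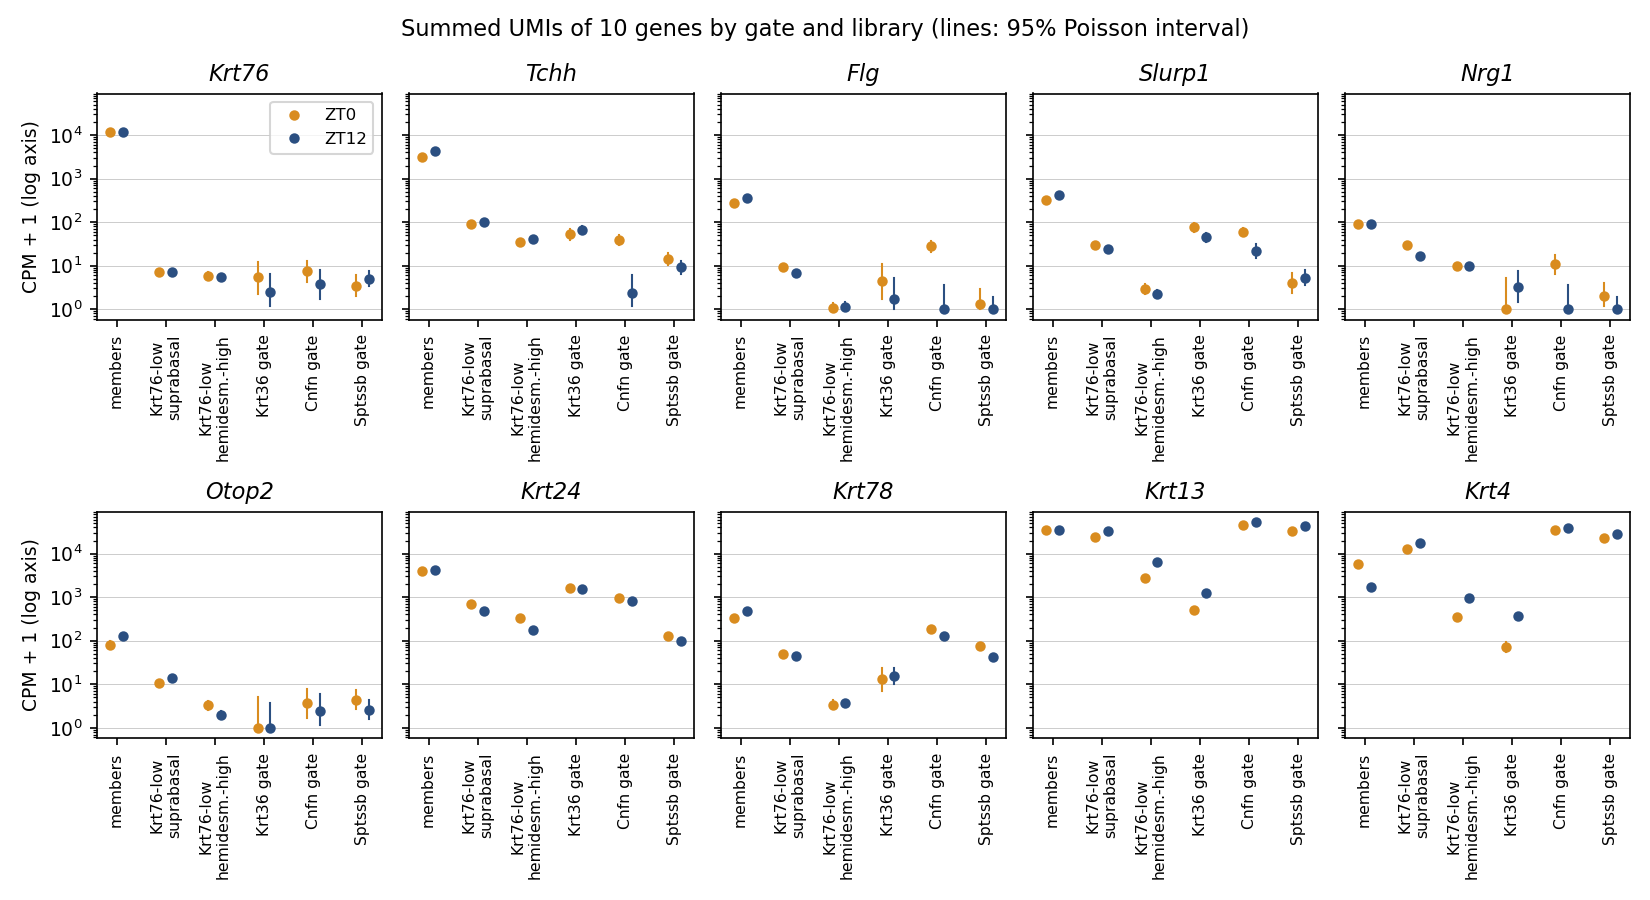
Summed levels of 10 genes in CPM + 1 (log axis) in 6 gates of cells, with 1 mark per library and lines for Poisson 95% intervals, which cover counting error only. Members hold the highest summed Tchh, Flg and Krt24 of the 6 gates.

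S100-fused and small proline-rich genes were higher in members. All 3 tested S100-fused genes met the rule against other cells, where 6.04% of all 2714 tested genes were higher. Of these 3, Tchh and Flg are markers that named the cells, and the list medians of 5.405 and 5.72 are the values of Tchh. The count for this family therefore adds little to the markers themselves. The third, Rptn (repetin), rested on 1 cell: it stood at 243 CPM at ZT0 and 10.3 at ZT12, and 96.9% of the ZT0 UMIs came from a single member. Without the highest cell on each side, its log2 ratio of ZT12 over ZT0 was -0.16. Both tested small proline-rich genes, precursors of the cornified envelope, were higher. Sprr1a stood at 514 and 766 CPM against 85.8 and 57.3 in other cells, and Sprr1b at 256 and 384 against 31.3 and 24.8.

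Of 11 tested cornified envelope genes, 7 were higher and 0 lower than in other cells, and 6 of 12 were higher than in suprabasal cells. Of all tested genes, 6.04% were higher and 4.27% lower than in other cells, and 4.84% were higher than in suprabasal cells. Sbsn (suprabasin) stood at 2015 and 2225 CPM against 915 and 963 in suprabasal cells. Tgm1, the transglutaminase that crosslinks the envelope, stood at 317 and 349.7 CPM against 141 and 121. Cst6, a cysteine protease inhibitor, stood at 409 and 428 CPM against 135 and 143. Cnfn stood at 263 and 225 CPM against 101 and 76.9. Lor, which encodes loricrin, the bulk protein of the epidermal envelope, was modest at 136 and 51.7 CPM, against 53.6 and 13.2. A single member held 54.3% of its UMIs at ZT0 and another 61.4% at ZT12. As given above, Sbsn, Cnfn and Lor no longer met the rule against suprabasal cells without each gene's highest cell on each side.

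Adhesion genes shifted in part. Dsc1, the desmocollin of upper layers, stood at 226 and 229.9 CPM against 19.6 and 12.7 in other cells, and Dsg1a, a desmoglein, at 836 and 892 against 356 and 365 in suprabasal cells. Of 11 tested desmosome genes, 3 were higher and 0 lower than in other cells, where 6.04% and 4.27% of all tested genes were. Cldn4, a tight junction claudin, stood at 249 and 247 CPM against 36.8 and 31.4 and was 1 of 2 tested tight junction genes. Dst (dystonin), whose epithelial form is a hemidesmosome plakin, was not itself a rule gene and stood at 41.5 and 72.4 CPM against 356 and 641. Of 4 tested hemidesmosome and basement membrane genes other than the rule genes, 2 were lower than in other kept cells. Those cells include the basal-gate cells, which the rule set apart by hemidesmosome genes, so this contrast is partly fixed by the rule. Against suprabasal cells, 1 of 2 tested genes of that list was lower, where 2.51% of all tested genes were.

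Surface and secreted proteins of the Ly6/uPAR family divided. Slurp1 and Ly6g6c, a surface-anchored member, were higher than in suprabasal cells, Ly6g6c at 1075 and 1019 CPM against 232 and 174. Ly6a and Ly6e were lower, at 47.5 and 22.2 CPM against 290.0 and 151 for Ly6a and at 100.1 and 25.1 against 272 and 152 for Ly6e. Of 7 tested family members, 2 were thus higher and 2 lower than in suprabasal cells, where 4.84% and 2.51% of all tested genes were. Among the ErbB receptors given here, only Erbb2 reached the mean of 50 CPM that the rule asks for, and it did not meet the rule. Erbb3 and Egfr lay below that mean and were not tested. Erbb3, which binds neuregulin, stood at 51.9 and 53.2 CPM against 44.4 and 48.1 in suprabasal cells, and Erbb2, its co-receptor, at 57.1 and 59.1 against 64.9 and 70.4. Egfr, the receptor of other ligands, stood at 37.1 and 37.0 CPM against 48.1 and 43.6. Otop3, a second otopetrin, stood at 199.5 and 184 CPM against 34.2 and 40.2 in suprabasal cells, so that 2 of 7 tested proton and ion transport genes were higher, and 1, Car12 (a carbonic anhydrase), was lower at 7.42 and 2.96 against 76.7 and 117.

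Some tested genes of the lipid barrier and of protease control met the rule against suprabasal cells, where 4.84% of all tested genes were higher and 2.51% lower. Elovl4, which elongates very long fatty acids for epidermal ceramides, stood at 334 and 356 CPM against 120.3 and 106 in suprabasal cells, and Alox12b, a lipoxygenase of the same barrier, at 129 and 155 against 27.2 and 30.8. Of 14 tested lipid barrier genes, 2 were higher and 1 lower. Serpinb3a and Serpinb3b, intracellular serpins, were higher, Serpinb3a at 2067 and 1766 CPM against 529.6 and 540.2, and Serpinb3b at 187 and 237 against 23.1 and 15.1. Of 6 tested serpins 3 were higher and 1 lower. St14, the membrane protease matriptase, stood at 141 and 108 CPM against 44.2 and 42.5, 1 of 2 higher genes among 10 tested proteases and inhibitors. Slpi, a secreted antimicrobial antiprotease, stood at 77.9 and 105 CPM against 17.7 and 7.94. Of 3 tested antimicrobial genes, 1 was higher and 0 lower than in suprabasal cells. The list's 6 genes at 20 CPM or more had medians of -2.21 and -1.38 on the log2 scale, where all genes had -0.10 and -0.09.

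Among 19 tested transcription factors, 5 were higher and 2 lower than in other cells, where 6.04% and 4.27% of all tested genes were. Klf4, which drives epidermal barrier formation, stood at 1278 and 1218 CPM against 528 and 454. Maf stood at 659 and 722 CPM against 201 and 295, and Hopx, a homeodomain protein without DNA contacts of its own, at 1071 and 517 against 454 and 200.05 in suprabasal cells. Barx2, a homeobox factor, was lower at 49.0 and 54.7 CPM against 401 and 553 in suprabasal cells, and Sox2, a factor of tongue progenitors, at 56.4 and 78.4 against 129.8 and 182. Of 8 tested glutathione and NRF2-type detoxification genes, 0 were higher and 4 lower than in suprabasal cells, where 4.84% and 2.51% of all tested genes were. The list's medians were -0.48 and -0.36 on the log2 scale, where all genes had -0.10 and -0.09. Gstm1, a glutathione transferase, stood at 48.2 and 39.9 CPM against 334 and 312. Gclc, the catalytic subunit of glutathione synthesis, stood at 24.5 and 25.9 CPM against 80.6 and 92.1, Gclm, its partner, at 46.0 and 45.8 against 148 and 137, and Nqo1, a quinone reductase, at 40.1 and 27.4 against 131 and 100. Of 14 tested stress genes, 0 were higher and 1, Atf3, lower, at 64.5 and 42.9 CPM against 225 and 131.

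Within the members, the 5 other markers were unevenly shared. All 5 were found together in 12 of 29 and 16 of 40 members, and none in 4 and 4. After thinning, 9 and 10 members held none of them and 2 and 2 held all 5, so the count of markers in a cell depends on its depth. By Spearman's rank correlation over the 29 and 40 cells, each of 1 library, Tchh went with Otop2 (coefficients 0.78 and 0.73), Nrg1 (0.76 and 0.68), Slurp1 (0.73 and 0.69) and Flg (0.70 and 0.58). It also went with total UMIs (0.49 and 0.59), which the cells of a library share as a scale. Krt76 went less closely with Tchh (0.48 and 0.22) and against Krt5 (-0.51 and -0.52).

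**Figure D3:**
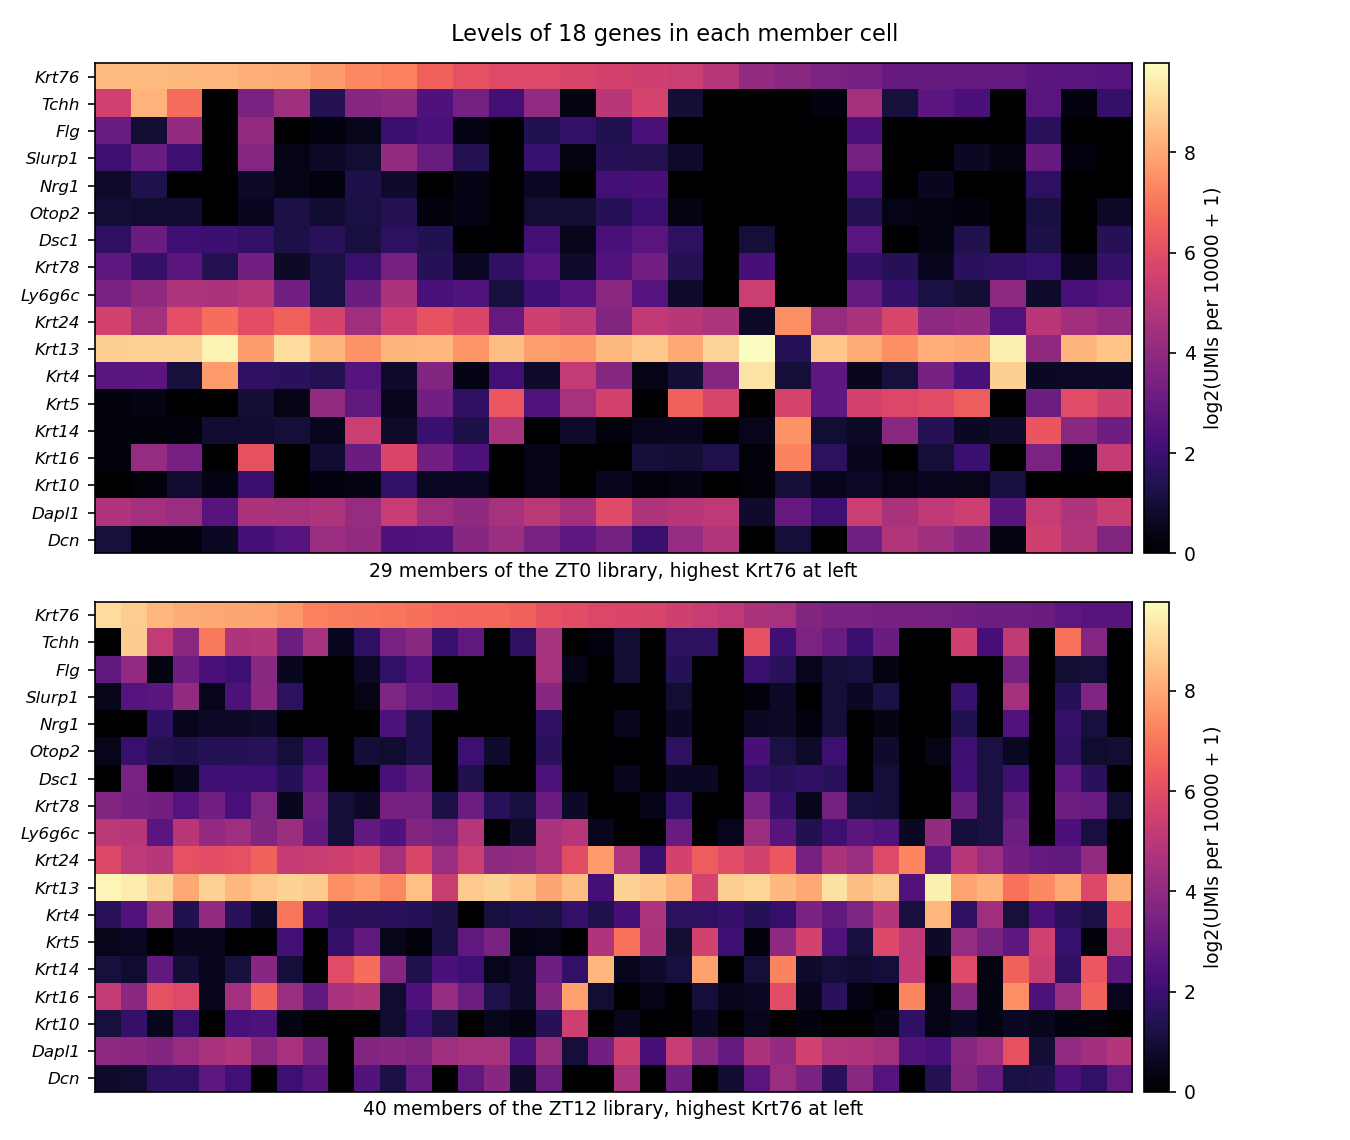
Each column is 1 member, 29 at ZT0 and 40 at ZT12, ordered by Krt76, and each row is 1 gene, coloured by log2(UMIs per 10000 + 1). Krt13 and Krt24 run through nearly all columns, while Tchh, Flg, Slurp1, Nrg1 and Otop2 share a subset of them.

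Cells with Tchh at 5 or more per 10000 numbered 14 of 29 at ZT0 and 20 of 40 at ZT12. This split was made after the data were seen and carries no test. Flg stood at 439 and 559 CPM in these cells and at 57.1 and 66.2 in the other members, and Slurp1 at 491 and 672 against 91.7 and 22.7. Nrg1 stood at 156 and 141 CPM against 1.73 and 7.57, Otop2 at 122 and 176 against 22.5 and 43.5, and Dsc1 at 319.5 and 363 against 100.3 and 22.7. Krt24 did not share the pattern, at 3771 and 3662 CPM against 4229 and 5107, nor did Krt13, at 30890 and 35008 against 41341 and 32450. Krt5 stood at 1240 and 677 CPM in the Tchh-high members and at 3217 and 1690 in the others. The Tchh-high members were also deeper, with medians of 57423 and 43331 UMIs against 41757 and 26186.5, and the part of depth was not tested.

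**Figure D4:**
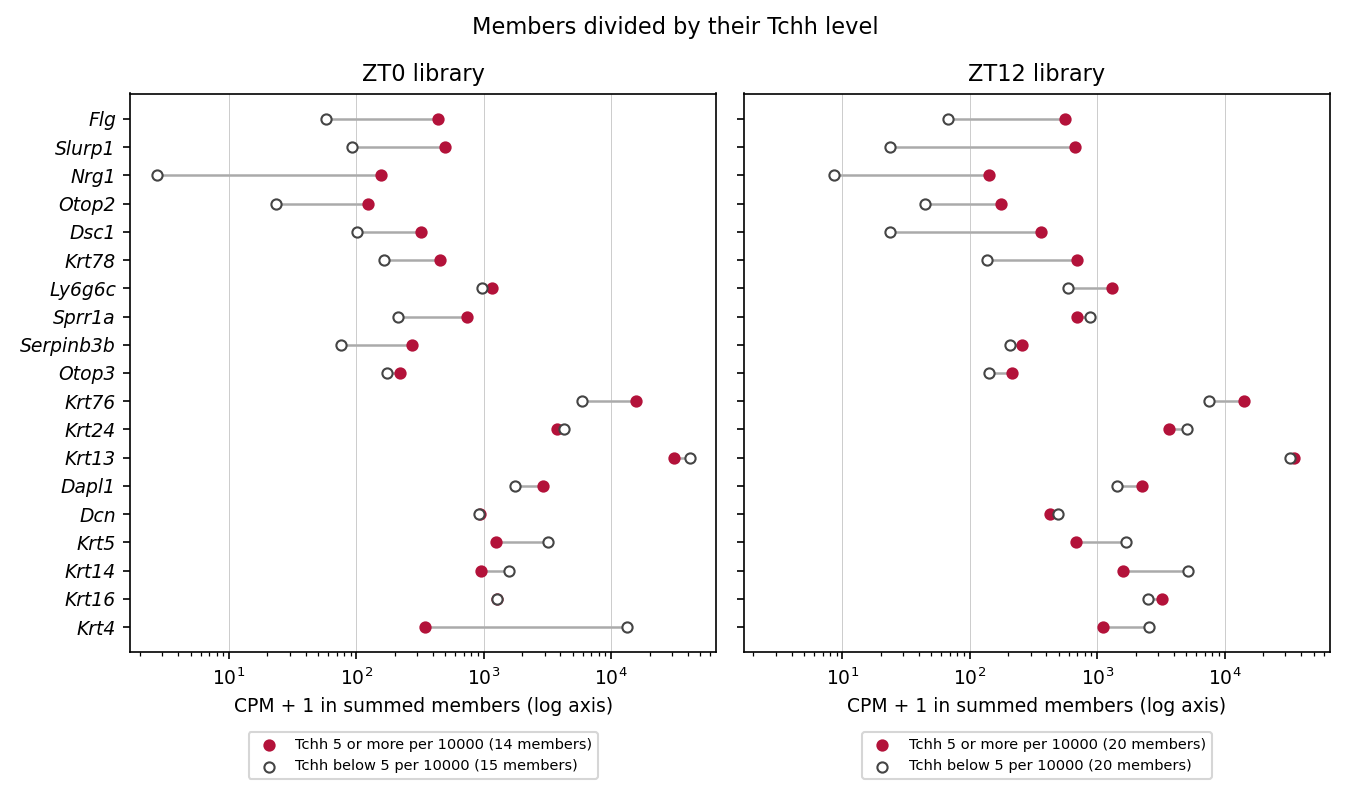
Summed levels in CPM + 1 (log axis) of 19 genes in members with and without 5 Tchh UMIs per 10000, 1 panel per library. Flg, Slurp1, Nrg1 and Otop2 separate in both libraries, while Krt24 and Krt13 nearly coincide.

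Members with much Krt5 held little Krt76. With Krt5 at 20 or more per 10000, 12 and 9 members held Krt76 at 2190 and 2779 CPM, against 15998 and 13606 in the others. Tchh stood at 852 and 321 CPM in them against 4339 and 5293, and Ly6g6c at 441 and 107 against 1382 and 1228. By bands of Krt76, the 8 and 11 cells at 5 to 10 per 10000 held Krt5 at 4519 and 1543 CPM, and the 14 and 22 cells at 50 or more held 549 and 689. Sprr1a stood at 74.3 and 381 CPM in the lowest band and at 813 and 969 in the highest. The bands between them held 2 to 5 cells each.

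Members high in Krt4 or Krt14 are given apart, by splits made after the data were seen and without a test. In 3 of 29 and 3 of 40 members Krt4 reached 50 or more per 10000, with sums of 47146 and 17500 CPM, and Krt13 stood at 81476 and 50653 CPM there. The 3 ZT0 cells held no Tchh, Flg or Krt5 UMI, while their Ly6g6c stood at 3011 CPM against 822 in the other members. This did not repeat at ZT12, where the 3 cells held Krt5 at 1074 CPM against 1073 in the other members, Tchh at 336 and Flg at 22.4 CPM, and each held an Otop2 UMI. In 4 and 10 members Krt14 reached 20 or more per 10000, and these held Krt14 at 8314 and 12338 CPM and Krt16, a type I keratin of activated keratinocytes, at 3953 and 6343. Their Krt13 was 10370.4 and 12296 CPM, against 39141 and 40386 in the other members, and Krt24 was 5749 and 6473 against 3699 and 3566. On sums, the Krt14-high members held Nrg1 at 125 and 120.5 CPM against 84.5 and 79.4, and Slurp1 at 244 and 596 against 331 and 366. Tchh stood at 725 and 1368 CPM against 3573 and 5247. Only part of the 4 and 10 cells carried these sums: Nrg1 was found in 2 and 4 of them, Slurp1 in 2 and 5, and Tchh in 3 and 8. Scrublet called 0 members doublets, but it called 1 and 2 cells in all, too few to have worked. Among the 5% of kept cells with the highest doublet scores, 65 and 111 cells, were 2 of 29 and 7 of 40 members. Without those cells, 27 of 1460 and 33 of 2442 kept cells were members and the ratio of shares was 0.731. Whether the Krt4-high or Krt14-high members are doublets was not tested.

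Between the times, few genes of the members met the size rule. Of 2580 tested genes, 9 were higher at ZT12 (0.349%) and 12 lower (0.465%), or 21 in all (0.814%). None of the 6 markers was among them. Krt76 stood at 11488 CPM at ZT0 and 11588 at ZT12, a ratio of 1.01 with a 95% counting interval of 0.986 to 1.03. Tchh had a ratio of 1.36 (1.31 to 1.42), Flg 1.33 (1.16 to 1.53), Slurp1 1.31 (1.15 to 1.49), Otop2 1.56 (1.22 to 2.01) and Nrg1 0.988 (0.761 to 1.28). With 1 library per time these intervals hold no spread between animals.

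Of the 21 genes that met the rule, 4 were keratins. Krt14 stood at 1225 CPM at ZT0 and 2995 at ZT12, a ratio of 2.44, while other kept cells held 5424 and 5261. Its most abundant cell held 45.3% of the ZT0 and 34.5% of the ZT12 UMIs. The 4 and 10 Krt14-high members held 1468 of 1652 and 3789 of 4052 Krt14 UMIs, and the other members stood at 157 and 252 CPM. Krt16 had a ratio of 2.33, from 1266 to 2947 CPM. Krt10, the type I keratin of epidermal suprabasal layers, stood at 51.9 and 179 CPM, but 51.2% of its ZT12 UMIs came from 1 cell. Krt4 was lower at ZT12, at 5861 and 1672 CPM, while in other cells it stood at 9185 and 12561. In members, that difference rested on the 3 Krt4-high members of each time: without them the log2 ratio was 0.24. Lor, at 136 and 51.7 CPM, also no longer met the rule without them, with a log2 ratio of -0.37.

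Other genes higher at ZT12 were Ehf, an ETS factor of epithelia, from 102 to 229.9 CPM, Id3, an inhibitor of basic helix-loop-helix factors, from 51.9 to 109, and Foxq1, a forkhead factor, from 37.8 to 79.1. Tdh, a threonine dehydrogenase, stood at 34.1 and 82.8 CPM, Vav3, a guanine nucleotide exchange factor, at 32.6 and 70.2 and Krtap3-3, a keratin-associated protein gene, at 86.8 and 175. After thinning to 5000 UMIs, the Foxq1 ratio turned to -0.53 on the log2 scale.

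Lower genes included members of the interferon and antigen presentation lists. Ifi27l2a, an interferon-inducible gene, stood at 378 CPM at ZT0 and 4.44 at ZT12, and 38.8% of its ZT0 UMIs came from 1 cell. In other kept cells it stood at 584 and 24.1. B2m, the invariant chain of MHC class I molecules, stood at 124 and 19.96 CPM and H2-D1, a class I heavy chain, at 274 and 135, against 383 and 29.3 and against 439 and 156 in other cells. Isg15, a ubiquitin-like interferon target below a mean of 50 CPM, stood at 96.4 CPM at ZT0 and had no UMI in members at ZT12. The 4 tested antigen presentation genes had 2 lower and 0 higher, and the single tested interferon gene was lower, where 0.465% of all tested genes were lower. Hopx stood at 1071 and 517 CPM in members and 441 and 191 in other cells, and Dcn at 924 and 449 against 807 and 421. Rptn, Ly6e, Tmsb10, Crip1 and 2410006H16Rik completed the 12. Leaving out each gene's highest cell on each side took 10 of the 21 genes below the rule. Of these, 5 kept log2 ratios past 1 but fell below a mean of 50 CPM: B2m at -2.54, Ly6e at -1.74, Lor at -1.60, 2410006H16Rik at -1.06 and Vav3 at 1.12. The ratios of H2-D1 (-0.97), Hopx (-0.94), Dcn (-0.91) and Crip1 (-0.87) came to just under the limit of 1, and that of Rptn to -0.16.

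**Figure D5:**
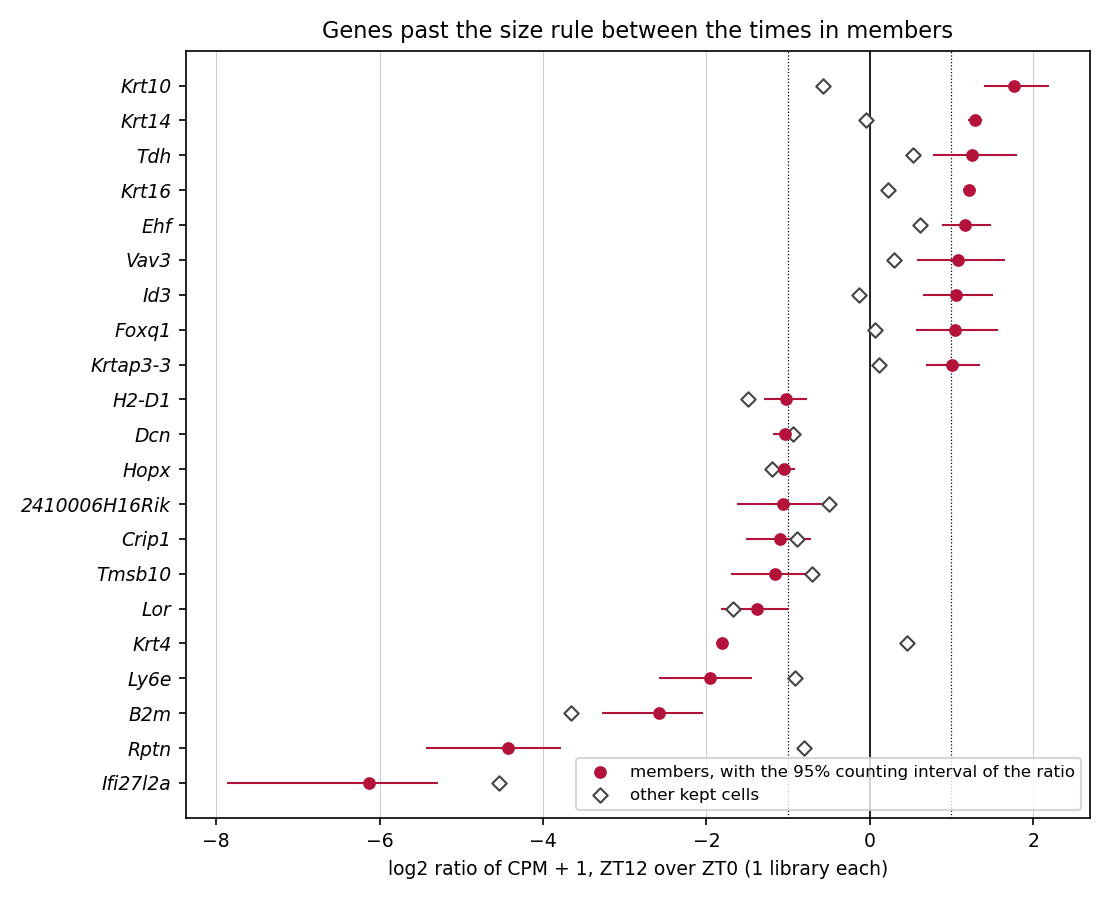
The log2 ratio of ZT12 over ZT0 for the 21 genes that met the size rule in members, with 95% counting intervals, beside the ratio in other kept cells. Krt10, Krt14, Id3 and Krt4 lie on opposite sides of 0 in the 2 sets, at 1.77, 1.29, 1.06 and -1.81 in members and -0.57, -0.04, -0.14 and 0.45 in other cells.

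Clock genes stood at low levels in the members. Dbp, a PAR bZip factor driven directly by the clock, stood at 1.48 CPM at ZT0 and 55.4 at ZT12, against 3.61 and 197 in other kept cells, and was found in 2 of 29 and 29 of 40 members. Per3, a period gene, stood at 19.3 and 43.6 CPM against 12.6 and 113. Tef, a relative of Dbp, stood at 12.6 and 44.4 CPM against 11.5 and 91.6. Nr1d1, which encodes the repressor REV-ERBα, stood at 10.4 and 34.0 CPM against 11.1 and 61.6, and Nr1d2, which encodes REV-ERBβ, at 8.90 and 25.1 against 8.53 and 59.7. Arntl, which encodes the activator BMAL1, stood at 8.16 CPM at ZT0 and had no UMI in members at ZT12, against 23.4 and 1.65 in other cells. Clock, its partner, stood at 101 and 75.4 CPM and did not meet the rule. The others were below the mean of 50 CPM that the rule asks for, and whether the members' smaller Dbp and Per3 values at ZT12 differ from those of other cells was not tested.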

How the data were processed

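Gene expression was measured in 2 droplet libraries of tongue epithelial cells. The deposited values were raw UMI counts per gene and barcode for 32285 genes. The build was mm10 and the software Cell Ranger 2.1.1, per the submitters' processing notes. Cell Ranger 4.0.0 stands in the matrices, per the file headers, and which version made the deposited counts could not be settled. Free RNA was not corrected. How reads of near-identical genes were counted is not stated in the labels, so Krt6a, Serpinb3a, Serpinb3b, Sprr1a, Sprr1b and Dsg1a, which have close copies, are uncertain.

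Counts of each gate were summed per library and divided by the gate's total UMIs (CPM), with a pseudocount of 1 on the log2 scale. Intervals were Clopper-Pearson for shares, Poisson for CPM and exact conditional binomial for ratios. Cells of a library are not replicates, so no p-value was computed. Members and gene lists were chosen with earlier results of these data known. The genes named were the markers, the rule genes, the 12 highest and 8 lowest against other kept cells, the 10 highest and 8 lowest against suprabasal cells, the 10 largest each way between times, and up to 4 genes of each list at 20 CPM or more, plus list genes needed to describe a count. Of these, those not described in the text are left to counts, and exceptions are marked. Lists were summarised by counts and medians.

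Doublets were scored with Scrublet in scanpy 1.11.5, which called 0.0656% and 0.0783% of cells, so they were in effect not removed. TMM factors came from edgeR 4.0.16. Other software was numpy 2.4.6, scipy 1.17.1, pandas 2.3.3 and matplotlib 3.10.9. Positions were taken from GENCODE M21, where 32158 of 32285 identifiers were found. In simulated counts for the comparison of times, over 32285 genes, the size rule called 62 of 63 genes changed 2.5-fold, 69 of 69 changed 4-fold, 0 of 68 changed 1.5-fold and 0 of 2338 unchanged genes. The simulation drew Poisson counts for the summed cells, without spread between cells or animals, and changed only genes above the CPM minimum. It therefore gives no rate of false calls for these data, where single cells held much of some genes' UMIs. Alternatives varied the cell filters, removal of the 5% highest doublet scores, both limits, scaling, CPM minimum, pseudocount and depth, and after the data were seen, the highest cell of each gene and the Krt4-high members.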

Additional observations from a re-analysis of the deposited data

Results flagged for a closer look

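Between ZT0 and ZT12, 4 genes that met the size rule in members had a log2 ratio of the opposite sign in other kept cells. For Krt14 and Id3 the ratio in other kept cells was small, so those genes barely differed there. The log2 ratio of ZT12 over ZT0 was 1.77 for Krt10 in members and -0.57 in other cells, and 1.29 for Krt14 against -0.04. It was 1.06 for Id3 against -0.14, and -1.81 for Krt4 against 0.45. The difference between members and other cells was not tested, because there was 1 library per time. For Krt10, 51.2% of the members' ZT12 UMIs came from 1 cell, and the log2 ratio was 1.10 when each gene's highest cell was left out on each side. For Krt14, 4 of 29 and 10 of 40 members held 1468 of 1652 and 3789 of 4052 UMIs. For Krt4 the log2 ratio was 0.24 without the 3 Krt4-high members of each time.

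Among barcodes that the filters removed, 8 at ZT0 and 2 at ZT12 met both gene limits of the members, a signal in barcodes that no comparison used. Of these, 6 and 2 had fewer than 5000 UMIs, and their median UMIs were 2730.5 and 1237.5. All removed barcodes together held 86 and 12 Krt76 UMIs, or 167 and 17.5 CPM. With 1 library per time, a sample far from the others of its group was not looked for.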

How the results depend on the processing

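No paired analysis was possible because there was 1 library per time and the labels give no replicate numbers. Of 64 alternative values of the share ratio and the counts of genes, 54 stayed within their limits, 10 moved and 0 reversed. The ratio of shares ran from 0.731 to 0.942. With a minimum of 20 CPM, the counts of genes that met the size rule were 589 against other kept cells, 371 against suprabasal cells and 71 between times; with 100 CPM they were 151, 111 and 11, and with no minimum 1511, 907 and 356, since the minimum sets how many genes are tested. Thinned to 5000 UMIs per cell, 70 genes met the rule between times, 13 of them shared with the 21, and the cause was not tested. Among 399 alternative values of named genes that met the rule, 355 were within limits, 42 moved and 2 reversed: Foxq1 at -0.53 after thinning, and Krt4 at 0.24 without the Krt4-high members. Without each gene's highest cell on each side, 14 genes met the rule between times, 10 higher and 4 lower at ZT12, 11 of them shared with the 21. Depth limits the genes below 50 CPM in 29 and 40 cells, the clock genes among them.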

Other observations

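Several genes outside the lists were also higher in members than in suprabasal cells, chosen here after their values were seen and given as levels without a test. Gjb2, a gap junction connexin of many epithelia, stood at 226 and 207 CPM at ZT0 and ZT12 against 46.0 and 44.3. Dapl1, an epithelial differentiation gene, stood at 2423 and 1926 CPM against 559.8 and 395. Tubb3, a β-tubulin best known from neurons, stood at 187 and 260 CPM against 37.5 and 31.1. Aox4, an aldehyde oxidase, stood at 455 and 438 CPM against 99.9 and 68.2, and Rbp2, a cellular retinol-binding protein, at 395 and 380 against 101 and 87.7. Each of these was higher in both libraries.

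Lower than in suprabasal cells were Mgst1, a microsomal glutathione transferase, at 12.6 and 10.3 CPM against 162 and 144, and Ccnd1, the G1 cyclin D1, at 34.1 and 56.2 against 199 and 261. Epcam, an epithelial adhesion molecule, stood at 41.5 and 25.1 CPM against 126 and 76.1.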
